A study of Rattus norvegicus with 32 samples.

Results

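Hadha, Hadhb and Decr1 encode 3 enzymes of mitochondrial fatty acid beta-oxidation and were studied in the renal cortex of rats, as 3 of the 26404 Ensembl genes counted. They were chosen by identifier, with their higher expression in RYGB-FMRR than in RYGB already known from these data. Values of the 3 genes that compare those groups are therefore given as a description, without a test. The identifiers were ENSRNOG00000024629 (Hadha), ENSRNOG00000010800 (Hadhb) and ENSRNOG00000008236 (Decr1), and each lay on the chromosome its name requires. All 3 passed the filter on low counts, together with the rest of 14776 genes tested.

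The study asked how Roux-en-Y gastric bypass (RYGB), alone or with medication, alters diabetic kidney disease in ZDSD (Zucker Diabetic Sprague Dawley) rats, a polygenic strain that becomes obese and diabetic. The SD group comprised Sprague Dawley rats (n = 6), which served as healthy controls and differ from the other groups in strain as well as in disease. The SHAM group comprised ZDSD rats with a laparotomy only (n = 7 used). The RYGB group comprised ZDSD rats after bypass surgery (n = 9). The RYGB-FMRR group comprised ZDSD rats after the same surgery that also received fenofibrate, metformin, ramipril and rosuvastatin in chow (n = 7), so that the effects of the 4 drugs cannot be told apart. By the labels every rat was 37 weeks old, and by the study's methods the ZDSD rats were male. By those methods the operations were performed at the youngest age in SHAM, later in RYGB-FMRR and latest in RYGB. Age at surgery therefore differed together with treatment. The 3 ZDSD groups shared a short course of insulin before surgery. Each library came from a different rat.

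Depth did not limit the measurement of these genes. Total counts ranged from 14502127 to 27597901 in the 29 rats used, and the median was lowest for SHAM (19835551), followed by RYGB (20288430), RYGB-FMRR (23293075) and SD (24089205.5). The lowest count of any of the 3 genes in any of these rats was 1808, for Decr1 in SHAM. A further 2 SHAM libraries, of rats 343 and 348, held only 121511 and 101534 counts and were left out of the results below. The tissue could not be checked against cell type markers, since the counts carry Ensembl identifiers only and no source used here links those to symbols.

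Beta-oxidation shortens fatty acids in the mitochondrial matrix in repeated rounds of dehydrogenation, hydration, a further dehydrogenation and thiolysis, releasing acetyl-CoA. HADHA and HADHB are the alpha and beta subunits of the mitochondrial trifunctional protein at the inner membrane, which carries out the later steps of each round for long-chain fatty acids. HADHA holds the enoyl-CoA hydratase and hydroxyacyl-CoA dehydrogenase activities, and HADHB the ketoacyl-CoA thiolase. DECR1, a dienoyl-CoA reductase, is an auxiliary enzyme needed to degrade many unsaturated fatty acids. Proximal tubular cells, the most numerous cells of the renal cortex, rely heavily on this pathway for energy. Fenofibrate is an agonist of PPAR-alpha, a nuclear receptor whose known targets include many genes of fatty acid oxidation.

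Hadha and Hadhb were neighbours on chromosome 6 in opposite orientation. In the rn5 build, Hadha spanned chr6:37400511-37439591 on the plus strand, with 20 exon intervals listed over its transcripts and an exonic length of 2510 bases. Hadhb spanned chr6:37366083-37393666 on the minus strand, with 15 exon intervals and an exonic length of 1920 bases. A gap of 6844 bases separated the gene models, with 0 genes listed wholly within it. Decr1 lay at chr5:34253236-34280749 on the minus strand, with 10 exon intervals and an exonic length of 1146 bases. In the RefSeq annotation of the GRCr8 build, Hadha and Hadhb were again adjacent and on opposite strands, with 300 bases between their start sites. RefSeq also lists a pseudogene, Decr1-ps1, so Decr1 counts are uncertain to the extent that reads matched both copies.

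The promoter windows of Hadha and Hadhb are shown because both genes are transcribed away from this short interval and were higher together in RYGB-FMRR. Each window runs 5′ to 3′ in the direction of its gene, from 250 bases before to 50 bases after the RefSeq start site. Capitals mark GC boxes (GGGCGG on either strand) and the nuclear receptor hexamer AGGTCA (on either strand). The Hadha window is chr6:31907551-31907850 of GRCr8 on the plus strand, and the Hadhb window is chr6:31907451-31907750 on the minus strand.
Hadha: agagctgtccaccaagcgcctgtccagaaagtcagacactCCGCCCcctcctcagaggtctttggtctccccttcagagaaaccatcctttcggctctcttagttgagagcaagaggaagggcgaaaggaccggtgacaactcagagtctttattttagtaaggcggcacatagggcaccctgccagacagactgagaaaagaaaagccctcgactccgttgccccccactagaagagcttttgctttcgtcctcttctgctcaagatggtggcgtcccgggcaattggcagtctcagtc
Hadhb: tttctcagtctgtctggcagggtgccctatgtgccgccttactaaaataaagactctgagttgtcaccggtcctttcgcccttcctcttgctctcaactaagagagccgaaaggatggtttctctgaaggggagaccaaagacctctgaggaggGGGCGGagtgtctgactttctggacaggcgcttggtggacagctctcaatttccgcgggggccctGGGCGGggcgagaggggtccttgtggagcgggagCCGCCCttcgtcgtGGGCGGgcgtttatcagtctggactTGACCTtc

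The windows shared 200 bases, as reverse complements of each other. Their GC content was 54.3% for Hadha and 58.3% for Hadhb, against a median of 51.7% over all 33469 windows of this length. GC boxes, the binding sequence of Sp-family factors, occurred in both. The Hadha window held a GC box on the opposite strand at position -210 from its start site, and the same bases formed the GC box at position -96 of the Hadhb window. The Hadhb window held further GC boxes at positions -31, 18 and, on the opposite strand, 4. GGGCGG was present on either strand in 33.1% of all windows. The hexamer AGGTCA, contained in the binding sites of many nuclear receptors, was found in the Hadhb window on the opposite strand at position 43 and not in the Hadha window, and was present in 16.2% of all windows. A direct repeat of this hexamer with 1 base between copies (either strand), the arrangement bound by PPAR-alpha with its partner RXR, was in neither window and in 0.0538% of all windows. The letters TATAAA, the core of a TATA box, were in neither window and in 14.2% of all windows. CCAAT was in the Hadha window on the opposite strand at position 35 and in 37.5% of all windows. These are matches of letters in a short window and do not show which factors bind.

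All 3 genes were highest in RYGB-FMRR. Levels are given as RPKM, reads per kilobase of exonic length per 1000000 reads, with library sizes normalised by TMM. Comparisons of RPKM between genes depend on the exonic lengths of the gene models. In bulk cortex, a change in the number of cells that express a gene and a change in RNA per cell cannot be told apart.

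Hadha, the alpha subunit, ranged from 161 to 212 RPKM in SD with a median of 182, and from 146 to 175 in SHAM with a median of 159. It ranged from 126 to 155 RPKM in RYGB with a median of 143, and from 260 to 336 in RYGB-FMRR with a median of 278. The RYGB-FMRR rats were all above every other rat, whereas SD overlapped SHAM and SHAM overlapped RYGB. On the log2 CPM scale the mean was 8.86 ± 0.15 (SD, n = 6) for SD rats, 8.64 ± 0.09 (SD, n = 7) for SHAM, 8.48 ± 0.09 (SD, n = 9) for RYGB and 9.48 ± 0.12 (SD, n = 7) for RYGB-FMRR.

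Hadhb, the beta subunit, followed the same order of medians. It ranged from 201 to 270 RPKM in SD with a median of 240 (nearest whole RPKM), and from 167 to 212 in SHAM with a median of 177. It ranged from 134 to 169 RPKM in RYGB with a median of 150 (nearest whole RPKM), and from 271 to 332 in RYGB-FMRR with a median of 300.2. The lowest RYGB-FMRR rat, at 271.2 RPKM, lay just above the highest SD rat, at 270.0. The means of log2 CPM were 8.81 ± 0.18 (SD, n = 6) for SD rats, 8.46 ± 0.12 (SD, n = 7) for SHAM, 8.18 ± 0.10 (SD, n = 9) for RYGB and 9.17 ± 0.10 (SD, n = 7) for RYGB-FMRR.

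Decr1, the dienoyl-CoA reductase, had the widest separation of RYGB-FMRR from the other groups. It ranged from 128 to 204 RPKM in SD with a median of 160 (nearest whole RPKM), and from 96.9 to 147 in SHAM with a median of 112. It ranged from 94.6 to 138 RPKM in RYGB with a median of 122, and from 348 to 406 in RYGB-FMRR with a median of 363. The order of the medians differed from that of the trifunctional protein subunits, in that RYGB lay above SHAM, but the ranges of these groups overlapped almost entirely. The means of log2 CPM were 7.52 ± 0.24 (SD, n = 6) for SD rats, 7.03 ± 0.21 (SD, n = 7) for SHAM, 7.11 ± 0.16 (SD, n = 9) for RYGB and 8.73 ± 0.08 (SD, n = 7) for RYGB-FMRR.

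**Figure D1:**
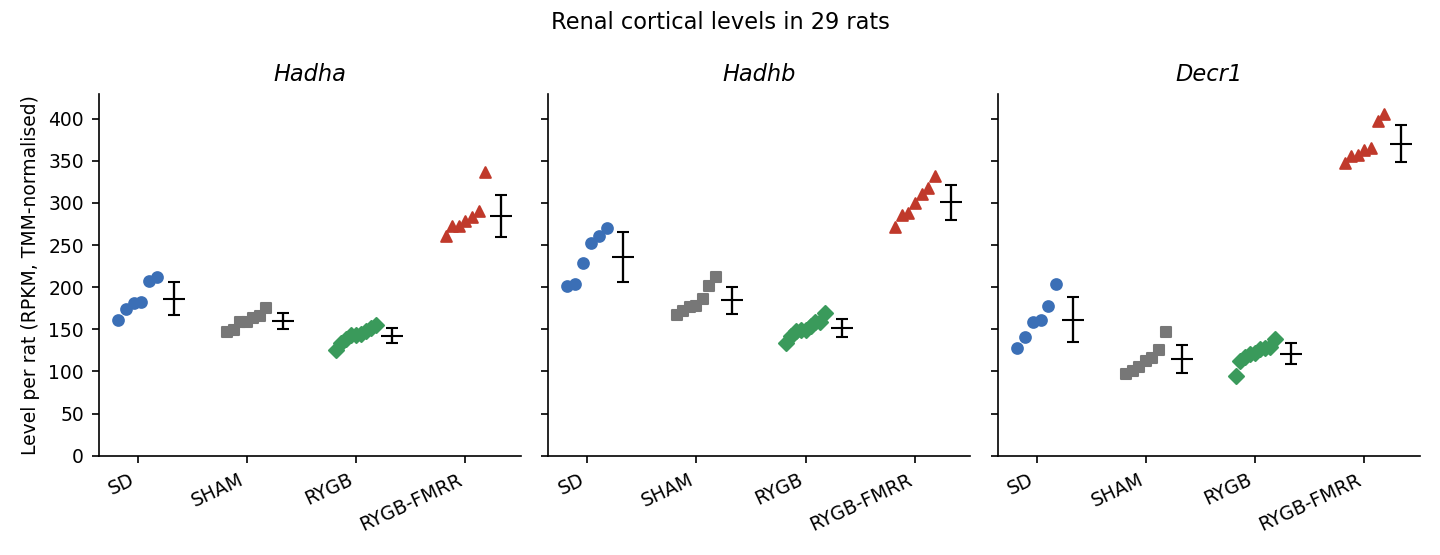
Level of Hadha, Hadhb and Decr1 in each of 29 rats (vertical axis, RPKM with TMM normalisation) by group (horizontal axis). Points are rats, ordered by level within a group, and the bar beside them is the mean ± SD. RYGB-FMRR lies above every other rat in all 3 panels, with Decr1 between 348 and 406 RPKM in that group and at most 204 elsewhere.

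All 3 were among the more highly expressed genes of the cortex. By median RPKM, Hadha ranked in the top 3.54% of 14776 genes for SD, 3.69% for SHAM, 4.10% for RYGB and 2.11% for RYGB-FMRR. Hadhb ranked in the top 2.51%, 3.21%, 3.90% and 1.94% of genes in the same order of groups. Decr1 moved from the top 4.13% in SD, 5.38% in SHAM and 4.85% in RYGB to the top 1.496% in RYGB-FMRR. Together the 3 genes took a median of 0.105% of all counts for SD, 0.0909% for SHAM, 0.0795% for RYGB and 0.162% for RYGB-FMRR.

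In some groups the same rat was extreme for all 3 genes. SD rat 353 was the lowest of its group for each gene, and RYGB rat 344 was the lowest of the RYGB rats for each gene. SHAM rat 334 was the highest of the SHAM rats and RYGB-FMRR rat 324 the highest of the RYGB-FMRR rats for each gene. The library of rat 344 had the fewest counts of the RYGB group, 16399376, whereas those of rats 353, 334 and 324 had 23933169, 21558912 and 23849509. The part of depth in these positions was not tested.

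SHAM was compared with SD to ask how the 3 genes differ between diabetic ZDSD rats and healthy controls, and this is the comparison whose rats took no part in choosing the genes. All 3 transcripts were lower in SHAM by adjusted p, and Decr1 also passed the fold change threshold. Decr1 fell by 0.49 on the log2 scale (SE 0.10, 95% interval -0.69 to -0.30, adjusted p = 0.000254, edgeR's quasi-likelihood test with Benjamini-Hochberg adjustment over 14776 genes), which is 1.41-fold lower. Hadhb fell by 0.36 (SE 0.07, 95% interval -0.50 to -0.21, edgeR adjusted p = 0.000349), or 1.28-fold lower. Hadha fell by 0.23 (SE 0.06, 95% interval -0.36 to -0.09, edgeR adjusted p = 0.00767), or 1.17-fold lower. Hadhb and Hadha thus differed by less than the fold change of 1.3 required for a call. Hadhb passed it when SD rat 352, SD rat 353, SHAM rat 315 or SHAM rat 334 was left out, with log2 fold changes of -0.40, -0.40, -0.38 and -0.39 (edgeR adjusted p from 0.000107 to 0.000360).

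Of the 3 genes, 1 was therefore called lower, where 18.6% of all genes tested were called in this comparison and 8.0% were called lower. By adjusted p alone all 3 were lower, as were 17.8% of all genes tested. The group ranges overlapped for each gene, whereas they did not overlap for 8.63% of all genes tested. All 7 SHAM rats lay below the SD median for each gene, and below every SD rat lay 4 SHAM rats for Hadha, 5 for Hadhb and 6 for Decr1. SHAM rat 334 was the SHAM rat that lay within the SD range for all 3 genes. Strain, disease, the laparotomy and the insulin given before it differ together between these groups and cannot be told apart.

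The left-out SHAM libraries gave values near those of the other SHAM rats, within wide counting intervals. For Hadha, rat 343 had 436 CPM of total counts (exact Poisson 95% interval 327 to 571) and rat 348 had 443 (323 to 593), against 396 to 444 in the other SHAM rats. For Hadhb they had 387 CPM (284 to 514) and 315 (216 to 445), against 324 to 411. For Decr1 they had 148 CPM (87.8 to 234) and 236 (151 to 352), against 121 to 171. The value of Decr1 in rat 348 rests on 24 counts, and its interval reaches into the range of the other SHAM rats. These intervals cover counting error only. With both libraries included, the 3 genes kept their direction and their adjusted p stayed under the threshold.

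RYGB was compared with SHAM to describe rats after bypass surgery without the medications. Bypass and age at surgery differ together between these groups and cannot be told apart. The estimates for the subunits of the trifunctional protein lay below 0, whereas that of Decr1 lay above 0. Hadha differed by -0.16 on the log2 scale (SE 0.06, 95% interval -0.28 to -0.04) and Hadhb by -0.28 (SE 0.06, 95% interval -0.41 to -0.15). Decr1 differed by 0.07 (SE 0.09, 95% interval -0.10 to 0.25). All 3 ranges overlapped, and none of the 3 differences reached the 1.3-fold threshold, where 5.35% of all genes tested were called and 1.27% had groups that did not overlap. All 9 RYGB rats lay below the SHAM median for Hadha and for Hadhb, whereas for Decr1 8 of 9 lay above it. The RYGB rats took part in choosing the genes, so no p is given for these differences. The intervals take no account of that choice and are not read as tests.

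RYGB rats lay below the SD median for all 3 genes. Hadhb differed by -0.64 on the log2 scale (SE 0.07) and Hadha by -0.39 (SE 0.06), and in both cases all 9 RYGB rats lay below all 6 SD rats. Decr1 differed by -0.42 (SE 0.09), and 7 of 9 RYGB rats lay below every SD rat. Over all genes tested, RYGB lay below SD without overlap for 5.54%. The RYGB rats took part in choosing the genes, so the positions of the 3 genes are a description.

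RYGB-FMRR was compared with RYGB to describe rats given the medications after surgery, and this contrast chose the genes. The medications and age at surgery differ together between these groups and cannot be told apart. Decr1 was higher by 1.62 on the log2 scale (SE 0.09, 95% interval 1.44 to 1.79), or 3.06-fold. Hadha was higher by 1.0 (SE 0.06, 95% interval 0.88 to 1.12), or 2.0-fold, and Hadhb by 0.99 (SE 0.06, 95% interval 0.86 to 1.12), or 1.99-fold. The estimates of the subunits of the trifunctional protein were nearly equal, and that of Decr1 was above both. The intervals take no account of the choice of the genes and are not read as tests. All 7 RYGB-FMRR rats lay above all 9 RYGB rats for each gene, which was so for 1.96% of all genes tested, and 2.74% of genes were called higher. Ranked by log2 fold change, Decr1 was 45th, Hadha 107th and Hadhb 112th from the highest of 14776 genes. The median log2 fold change of all genes tested was -0.02.

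RYGB-FMRR also lay above SHAM and above SD for each gene, in 7 of 7 rats. Compared with SHAM, Hadha was higher by 0.84 (SE 0.06), Hadhb by 0.71 (SE 0.07) and Decr1 by 1.69 (SE 0.09) on the log2 scale. Groups did not overlap, with RYGB-FMRR higher, for 3.44% of all genes tested. Compared with SD, Hadha was higher by 0.61 (SE 0.06), Hadhb by 0.35 (SE 0.07) and Decr1 by 1.20 (SE 0.10), where 5.45% of all genes tested were higher without overlap. Hadhb was the nearest to its SD level, at 1.27-fold, and Decr1 the farthest, at 2.29-fold. The RYGB-FMRR rats took part in choosing the genes, so the values of the 3 genes are a description. Comparisons with SHAM share the same SHAM rats and comparisons with SD the same SD rats, so the comparisons are not independent.

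**Figure D2:**
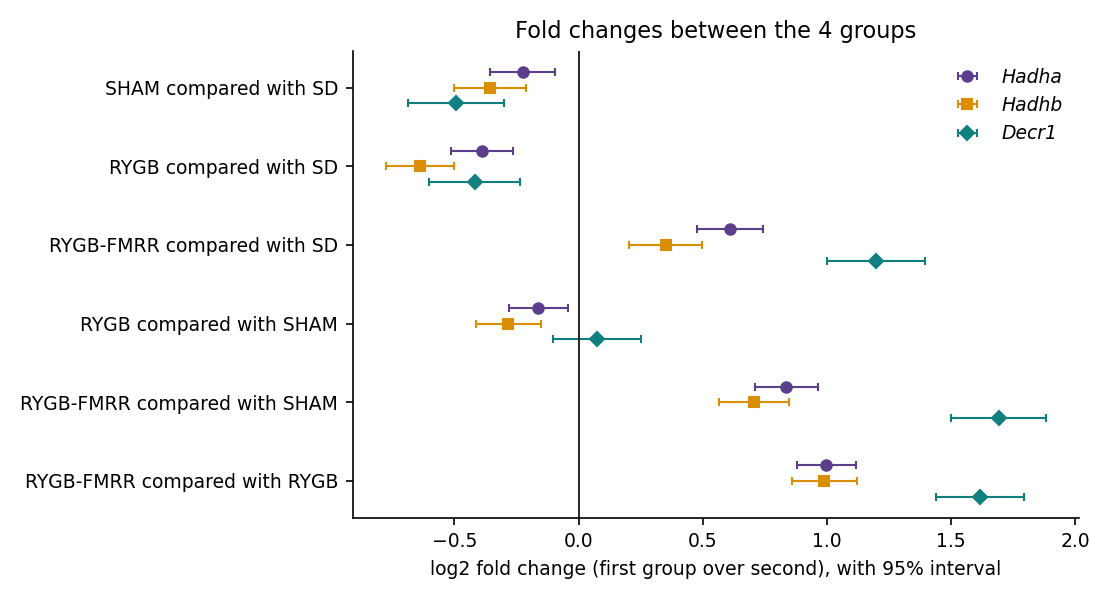
Log2 fold change of each gene (horizontal axis, first group over second) in the 6 comparisons of groups (vertical axis), with 95% intervals from edgeR's quasi-likelihood fit. Values left of 0 are lower in the first group. Decr1 lies farthest right in the 3 comparisons that involve RYGB-FMRR, at 1.20, 1.69 and 1.62. The RYGB and RYGB-FMRR rats took part in choosing the genes, and the intervals take no account of that choice. Comparisons that share a group are not independent.

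Hadha transcripts were fewest relative to those of Hadhb, its partner in the trifunctional protein, in SD. The ratio of Hadha to Hadhb counts per exonic length had a median of 0.786 for SD, 0.851 for SHAM, 0.939 for RYGB and 0.926 for RYGB-FMRR. As log2 ratios the means were -0.34 ± 0.11 (SD, n = 6), -0.21 ± 0.08 (SD, n = 7), -0.09 ± 0.08 (SD, n = 9) and -0.08 ± 0.07 (SD, n = 7) in the same order. Hadha transcripts per length were thus fewer than those of Hadhb in all 13 SD and SHAM rats used, and were above Hadhb in 2 of 9 RYGB rats and 2 of 7 RYGB-FMRR rats.

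The log2 ratio was higher in SHAM than in SD by 0.13 (exact permutation test over rats, two-sided, p = 0.0303). This difference rested on few rats. It ranged from 0.10 to 0.17 when each rat was left out in turn, and its exact permutation p rose to 0.0631 without SD rat 354 or SD rat 356, 0.0657 without SD rat 357 and 0.0563 without SHAM rat 321 or SHAM rat 340. With rats 343 and 348 included it was 0.16 (exact permutation p = 0.0124).

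Per exonic length, the order of Decr1 and the trifunctional protein subunits was reversed in RYGB-FMRR. This order depends on the lengths of the gene models. In counts not divided by length, Decr1 had at most 10731 in RYGB-FMRR, against at least 10959 for Hadhb and 13053 for Hadha. The ratio of Decr1 to Hadha per length had medians of 0.862 for SD, 0.704 for SHAM, 0.835 for RYGB and 1.31 for RYGB-FMRR. The ratio of Decr1 to Hadhb had medians of 0.685, 0.625, 0.812 and 1.22 in the same order. Per length, Decr1 was below both subunits in all 22 rats of SD, SHAM and RYGB and above both in all 7 RYGB-FMRR rats. The lowest Decr1 to Hadha ratio in RYGB-FMRR, 1.21, was in rat 324, and the highest in the other groups, 0.980 (3 significant digits), was in SD rat 354. Since the genes were chosen on RYGB-FMRR compared with RYGB, this order is a description.

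**Figure D3:**
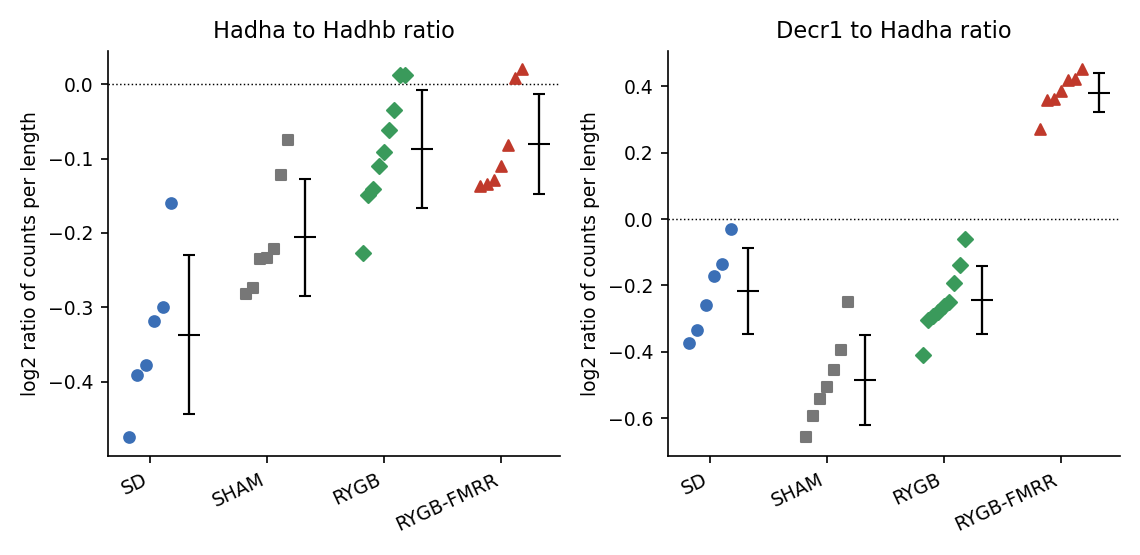
Log2 ratio of Hadha to Hadhb and of Decr1 to Hadha counts per exonic length (vertical axes) in each of 29 rats by group (horizontal axis). Points are rats, ordered by value within a group, the bar beside them is the mean ± SD, and the dotted line marks equal levels. The Hadha to Hadhb ratio is lowest in SD, at a mean of -0.34, and the Decr1 to Hadha ratio is above 0 in RYGB-FMRR only among these 4 groups.

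Within groups, rats with more of one transcript tended to have more of the others. Over 12 relations (3 gene pairs in 4 groups, log2 CPM), Pearson's r ranged from 0.65 to 0.94, and 9 of 12 had a Benjamini-Hochberg adjusted exact permutation p under 0.05 by Pearson's r, against 3 of 12 by Spearman's rho. These counts are not set against those of other gene pairs and are not read as particular to the 3 genes. The RYGB and RYGB-FMRR rats took part in choosing the genes. In those groups p takes no account of that choice and is a description. The relation with the smallest p was that of Hadhb with Decr1 in RYGB, with r = 0.91 (exact permutation p = 0.00101, adjusted p = 0.0122, n = 9) and rho = 0.95 (exact permutation p = 0.000353, adjusted p = 0.00423). Without the 2 rats farthest from the median of Hadhb, r was 0.71. In SD the relation of these genes had r = 0.94 (exact permutation p = 0.00278, adjusted p = 0.0159, n = 6) and rho = 1.0 (exact permutation p = 0.00278, adjusted p = 0.0167), and r without 2 rats was 0.83.

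Other relations had lower values. In SHAM, Hadhb and Decr1 had r = 0.77 (exact permutation p = 0.0698, adjusted p = 0.0698, n = 7) and rho = 0.54 (exact permutation p = 0.236, adjusted p = 0.236), and without 2 rats r turned to -0.43, so that the positive value rested on those rats. In the other 11 relations r stayed above 0 without 2 rats. Hadha and Hadhb in RYGB had r = 0.65 (exact permutation p = 0.0625, adjusted p = 0.0682, n = 9) and rho = 0.68 (exact permutation p = 0.0503, adjusted p = 0.0671), falling to r = 0.22 without 2 rats. In RYGB-FMRR these subunits had r = 0.82 (exact permutation p = 0.0119, adjusted p = 0.0286, n = 7) and rho = 0.89 (exact permutation p = 0.0123, adjusted p = 0.0492), and r without 2 rats was 0.90 (2 decimals). The 3 transcripts of a rat share its library and its normalisation. The gene pairs of a group also share genes and rats, so the relations are not independent of each other. How often other pairs of genes correlate as strongly within a group was not counted.

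**Figure D4:**
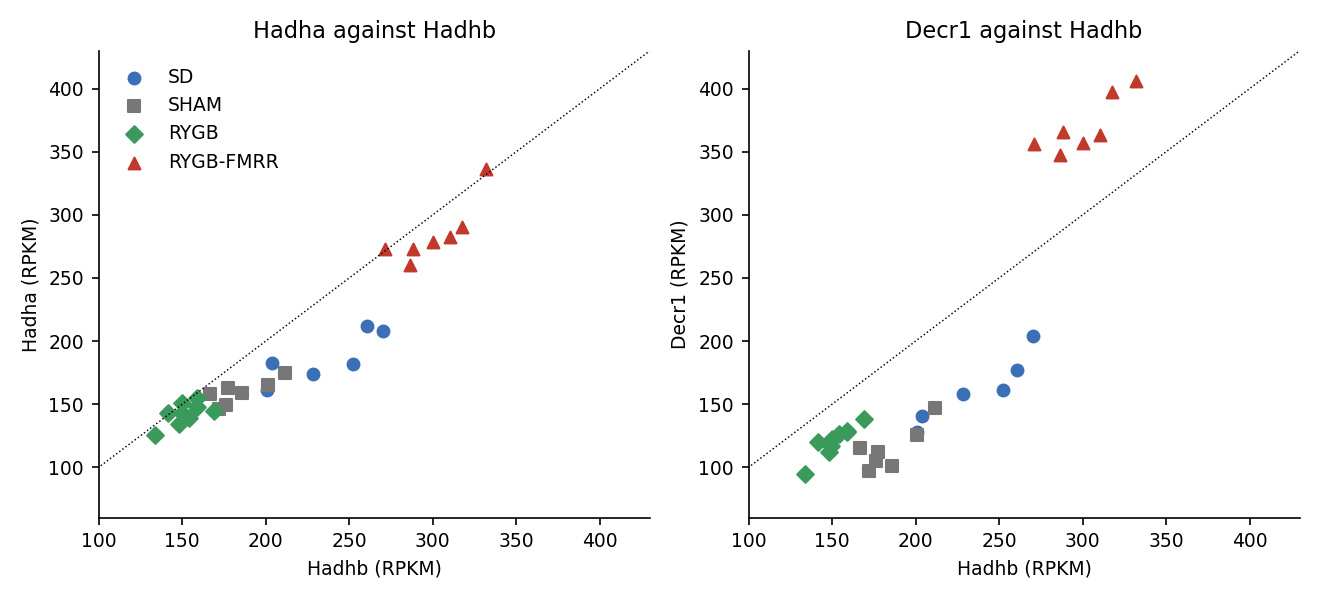
Level of Hadha (left, vertical axis) and of Decr1 (right, vertical axis) against Hadhb (horizontal axes), all in RPKM, in each of 29 rats. Symbols mark the group and the dotted line marks equal levels. The 7 RYGB-FMRR rats lie above the line for Decr1 and the 22 other rats below it, whereas for Hadha most rats of every group lie below it.

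The genes whose log2 CPM was most like that of each enzyme were sought among the 14775 other genes tested, by Pearson's r over 29 rats. The groups differ for many genes, so these values mostly describe likeness between groups, and no p is given. For Decr1 the most alike was ENSRNOG00000001770 (rn5 chr11:86024803-86057811, plus strand), with r = 0.991, which was higher in RYGB-FMRR than in RYGB by 2.80 on the log2 scale (SE 0.15). For Hadhb it was ENSRNOG00000018145 (rn5 chr3:14320765-14334358, minus strand), with r = 0.987, which was higher by 0.99 (SE 0.07). The most alike gene to Hadha had r = 0.978. Among the 3 enzymes, Decr1 was 4th in likeness to Hadha (r = 0.967) and Hadhb 11th (r = 0.950, 3 significant digits). An r of at least 0.8 was reached by 109 genes for Hadha, 102 for Hadhb and 147 for Decr1, at most 0.995% of genes.

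After the mean of each group was subtracted, which leaves the variation among rats of a group, likeness was lower and fewer genes stood close to the 3 enzymes. An r of at least 0.8 was then reached by 5 genes for Hadha, 6 for Hadhb and 11 for Decr1. Hadhb was then the 1st of 14775 genes in likeness to Decr1 (r = 0.857), and Decr1 was 5th in likeness to Hadhb. Decr1 was also 5th in likeness to Hadha (r = 0.804), whereas Hadhb was 11th (r = 0.765), although Hadha and Hadhb are adjacent and their proteins form one complex.

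Genes near the 3 enzymes on the chromosome mostly differed little between RYGB-FMRR and RYGB. Of the 6 tested genes nearest to the Hadha-Hadhb pair, 3 on each side and 39.5 to 360.3 kb away in rn5, log2 fold changes ranged from -0.10 to 0.21 and the smallest edgeR adjusted p was 0.107, where 4.56% of all genes tested were called. Within 1000 kb of the pair 31 genes were tested and 1 was called, which was higher by 0.72 on the log2 scale (SE 0.11, adjusted p = 2.34e-05). In SHAM compared with SD, 1 of the 6 nearest genes was called. It lay 140 kb away (nearest kb) and was higher by 0.39 (SE 0.14, edgeR adjusted p = 0.0322). Within 1000 kb, 4 of 31 genes were called, where 18.6% of all genes tested were called. The largest difference among them was -1.66 (SE 0.07, edgeR adjusted p = 6.48e-17). The fold changes of Hadha and Hadhb in RYGB-FMRR compared with RYGB were above those of all 31 genes. Since Hadha and Hadhb were chosen on this contrast and their neighbours were not, this order is a description.

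Near Decr1, 5 genes were tested within 1000 kb, from 10.9 to 707 kb away. In RYGB-FMRR compared with RYGB, where 4.56% of all genes tested were called, 1 of these 5 was called. It lay 20.2 kb away and was higher by 0.46 on the log2 scale (SE 0.05, edgeR adjusted p = 2.28e-07), against 1.62 for Decr1. The nearest, 10.9 kb away, had a difference of -0.39 (SE 0.22, edgeR adjusted p = 0.270, 3 significant digits). In SHAM compared with SD, where 18.6% of all genes tested were called, 2 of these 5 were called, both in the opposite direction to Decr1. That nearest gene was higher in SHAM by 1.70 (SE 0.26, edgeR adjusted p = 1.26e-05). The other, 61.6 kb away, was higher by 0.43 (SE 0.10, edgeR adjusted p = 0.00148). These neighbours carry Ensembl identifiers only and are given by distance.

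**Figure D5:**
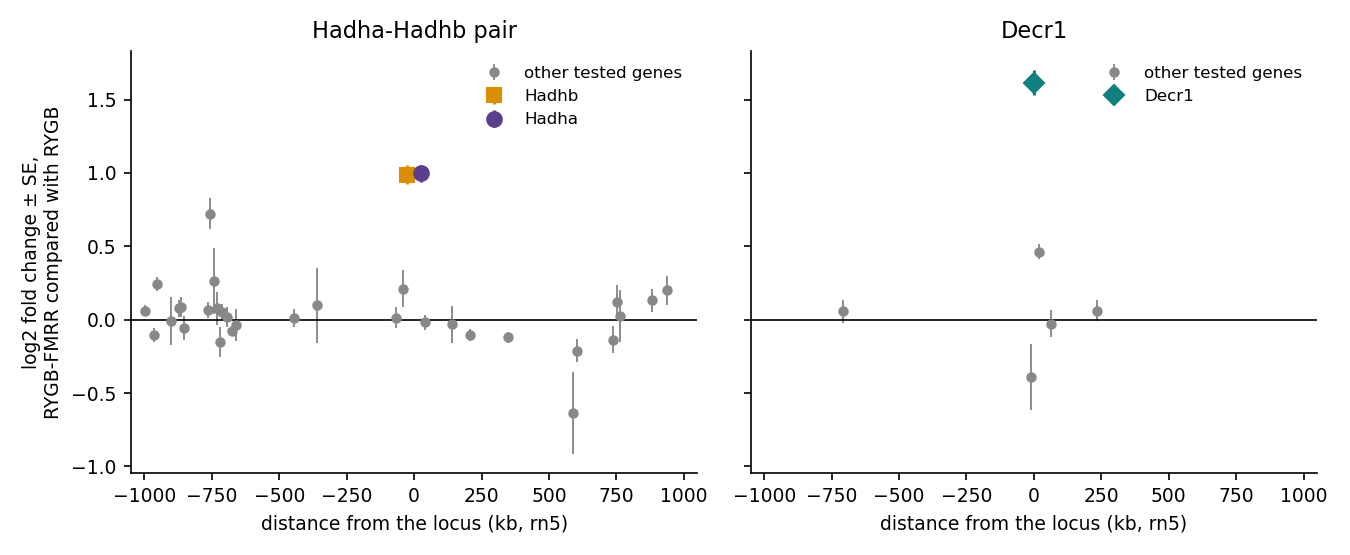
Log2 fold change ± SE in RYGB-FMRR compared with RYGB (vertical axis) of tested genes by distance from the Hadha-Hadhb pair (left) and from Decr1 (right) in kb of rn5 (horizontal axis, negative towards lower coordinates). Coloured symbols are the enzymes, placed near 0, and grey points are other genes. The 6 genes nearest to the pair lie between -0.10 and 0.21, against 1.0 for Hadha and 0.99 for Hadhb. The enzymes were chosen on this contrast, whereas the other genes were not.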

How the data were processed

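Renal cortical total RNA, depleted of ribosomal RNA, was made into stranded libraries and sequenced in paired-end mode. According to the submitters' processing notes and the study's methods, reads were trimmed with Trim Galore 0.4.0 and Cutadapt 1.9, checked with FastQC 0.11.2 and aligned with STAR 2.5.2b. Per the file headers, the authors counted read pairs on exons of Ensembl genes of rn5 with featureCounts 1.6.4 (paired, reverse-stranded), with no option to count reads that align to several places. These raw counts were deposited without normalization or filtering.

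Groups were taken from the sample labels. Of 31 libraries, 2 with a total under 1000000 counts were left out. The labels name a further rat of the RYGB-FMRR group, not analysed here. No pair of libraries of a group had identical counts. Counts were analysed in R 4.3.3 with edgeR 4.0.16 (TMM, filterByExpr, quasi-likelihood test, 4 groups in one model, no covariates). Genes were called at a Benjamini-Hochberg adjusted p-value under 0.05 with an absolute fold change of 1.3 or more. The standard error of a log2 fold change was its size over the root of the F statistic, log2 CPM used a prior count of 2, and RPKM used the exonic length in the files. The steps were tested on simulated counts with 100 genes changed in RYGB-FMRR at each of 2 folds. In RYGB-FMRR compared with RYGB, 71% of genes changed 1.5-fold and 90% of those changed 2-fold were called. In that comparison 3 unchanged genes were called, and 0 genes were called in SHAM compared with SD, where none was changed. Smaller folds were not simulated.

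The 3 genes, the lists and the tests were chosen with earlier results of these data known. The genes given by name were the 3 enzymes, the genes most alike to each in log2 CPM and the nearest tested genes on each side. Lists of other beta-oxidation, respiratory chain and cell type marker genes were intended but not analysed here, since no source used here links Ensembl identifiers to symbols, and for the same reason at most 2 identifiers that rose are printed. Promoter windows and the adjacency stated for GRCr8 come from RefSeq, a different build from that of the counts. They were matched by symbol, with a window for 2 of the 3 genes. The tested neighbours and their distances were taken from the rn5 coordinates of the counted Ensembl genes. Alternatives tried were the DESeq2 1.42.0 Wald test, DESeq2 size factors within edgeR, no filter on low counts, all 31 libraries, models of the compared groups alone, and leaving out each library in turn.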

Additional observations from a re-analysis of the deposited data

Results flagged for a closer look

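In RYGB-FMRR, rat 324 stood apart from the other 6 rats for Hadha. Its log2 CPM was 9.72, and the next highest rat had 9.51, a gap of 0.573 of the whole range of the group against a critical value of 0.568 (Dixon's test, n = 7). The same rat was the highest of its group for Hadhb, at 9.32, and for Decr1, at 8.86, without standing apart. Of 16 sets of values checked in this way (3 genes and the Hadha to Hadhb ratio in 4 groups), 1 was flagged, where chance flags about 1 in 20.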

How the results depend on the processing

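All 18 fold changes of Hadha, Hadhb and Decr1 (3 genes in 6 comparisons) kept their direction under each of the 34 alternatives, which gave 612 values. In SHAM compared with SD, the adjusted p of each gene stayed under 0.05 in all 34. It ranged from 0.00207 to 0.0316 for Hadha, 8.07e-06 to 0.00749 for Hadhb and 6.76e-06 to 0.0065 for Decr1 (edgeR, or DESeq2 in its alternative). The 1.3-fold threshold was passed by Decr1 in 34 of 34 alternatives, by Hadhb in 4 and by Hadha in 0. The 34 include leaving out each RYGB and RYGB-FMRR rat, which are not in the compared groups and moved these estimates little. The 4 for Hadhb were all among the alternatives that left out 1 of the 13 SD and SHAM rats. Counts of genes called stayed within 1.5 times their values under every alternative, from 2221 to 3114 for SHAM against SD, 571 to 1138 for RYGB against SHAM, 1472 to 2104 for RYGB-FMRR against SHAM and 534 to 764 for RYGB-FMRR against RYGB. The difference of the log2 Hadha to Hadhb ratio between SHAM and SD ranged from 0.10 to 0.17 with each rat left out, with an exact permutation p from 0.00253 to 0.0657, and the p passed 0.05 without 5 of the 13 rats. The cause was not tested. No paired analysis was possible because each group holds different rats, whose numbers are not shared between groups.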
